A study of Mus musculus with 16 samples.

Results

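The opioid receptor genes of the mouse are Oprm1, Oprd1, Oprk1 and Oprl1, which encode the mu, delta, kappa and nociceptin receptors. They were chosen by gene symbol and are 4 of the 38924 genes in the count files. All 4 had enough reads to be tested. The libraries were polyA RNA from punches of the periaqueductal gray of male mice, the midbrain region around the aqueduct, in a study of how morphine tolerance and the RGS protein RGSz1 shape gene expression there. Its 16 libraries form 4 groups of 4, naive and morphine mice that were either wild type or knockout, where knockout means that the label reads RGSz1 knockout. Each library pooled punches from 2 animals, so animals within a library cannot be told apart. The labels give no strain, no design of the knockout allele, no morphine dose or schedule and no vehicle group, so morphine and the handling that came with it cannot be told apart.

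Opioid receptors are G protein-coupled receptors of the inhibitory kind. When an agonist binds, the inhibitory G protein lowers cyclic AMP, opens inwardly rectifying potassium channels and closes voltage-gated calcium channels, so the neuron fires less and releases less transmitter. In the periaqueductal gray the mu receptor is the main target of morphine, and its inhibition of local GABA neurons frees output neurons that engage descending pain control. RGS proteins speed the switching off of the G protein, and RGSz1 is known as a regulator of the G protein Gz, to which opioid receptors couple.

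The 4 genes lie on 4 chromosomes of GRCm38, the assembly also called mm10. Oprm1 spans chr10:6758506-7038198 on the plus strand with 31 annotated transcripts. Oprd1 spans chr4:132110726-132144486 on the minus strand with 1 transcript. Oprk1 spans chr1:5588466-5606131 on the plus strand with 5 transcripts, and Oprl1 spans chr2:181715016-181720985 on the plus strand with 11. Their coding sequences run to 1197, 1119, 1143 and 1104 bases in the same order. Pairs were 58.4% (Oprm1 and Oprl1) to 65.4% (Oprm1 and Oprd1) identical over aligned bases, and 443 of 1067 gap-free columns (41.5%) were the same in all 4.

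The coding window with the most bases identical in all 4 is shown because it makes the family visible and is where the genes are most alike in sequence. It encodes the end of the first membrane helix, the first intracellular loop and the start of the second helix, and in each gene it crosses an exon junction. Each line gives 90 coding bases, 5′ to 3′, read from the GENCODE M21 transcript on GRCm38. Capitals mark the 61 bases that are identical in all 4.
Oprm1: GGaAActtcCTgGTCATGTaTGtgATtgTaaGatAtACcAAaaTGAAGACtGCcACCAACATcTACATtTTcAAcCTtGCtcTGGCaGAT
Oprd1: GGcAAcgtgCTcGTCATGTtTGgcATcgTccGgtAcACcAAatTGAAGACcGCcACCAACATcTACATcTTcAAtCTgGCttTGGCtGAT
Oprk1: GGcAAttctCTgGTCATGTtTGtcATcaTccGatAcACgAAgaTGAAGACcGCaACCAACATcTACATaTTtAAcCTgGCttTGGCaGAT
Oprl1: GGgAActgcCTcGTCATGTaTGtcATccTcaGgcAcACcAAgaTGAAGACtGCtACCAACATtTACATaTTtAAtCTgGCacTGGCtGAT
The windows span chr10:6789127-6828942 for Oprm1, chr4:132117411-132144190 for Oprd1, chr1:5589274-5598647 for Oprk1 and chr2:181715915-181718434 for Oprl1, introns included. The longest run of bases that any 2 coding sequences shared, at any position in either, was 25 bases, between Oprk1 and Oprl1. The read length is not given in the sources used here.

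Library totals over genes ran from 19.1 to 55.0 mega counts. Rgs20, which encodes RGSz1, did not separate the genotype labels: it lay at 12.8 ± 0.824 CPM (TMM-scaled counts per mega counts in the library; SD, n = 4) in wild-type naive and 12.6 ± 0.950 CPM in knockout naive libraries. In the morphine groups it lay at 13.1 ± 1.04 CPM in wild-type and 12.1 ± 0.667 CPM in knockout libraries. Gene-level counts do not show whether an exon is missing, so each genotype result below is a difference between libraries by their labels. Forebrain markers summed to between 2.53 and 5.69 CPM and pan-neuronal markers to between 3453 and 4331 CPM in every library. Wild-type naive 2 and knockout morphine 3 stood apart in meningeal fibroblast markers, which summed to 158 and 118 CPM against 26.9 to 55.4 CPM in the other 14. The summed level of 10 serotonin neuron markers, genes of the dorsal raphe cells that border the region, had group medians of 466 CPM in wild-type naive, 292 CPM in knockout naive, 819 CPM in wild-type morphine and 1182 CPM in knockout morphine libraries.

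Oprl1 was the highest of the 4 receptor genes in all 16 libraries, on each scale used. By mean CPM over the libraries it stood at percentile 90.5 of the tested genes, against 58.4 for Oprk1, 44.7 for Oprm1 and 36.7 for Oprd1. Levels of different genes can be set side by side only per length. Per kb of merged exons, wild-type naive libraries gave 33.5 ± 0.864 CPM per kb for Oprl1, 2.18 ± 0.256 for Oprk1, 1.53 ± 0.369 for Oprd1 and 1.45 ± 0.120 for Oprm1 (SD, n = 4). On that scale Oprl1 made up 84.6 to 87.6% of the summed level of the 4 receptors in a library. Oprk1 was above both Oprm1 and Oprd1 in all 16, while Oprm1 and Oprd1 traded places, Oprm1 being higher in 5 of 16.

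The lower order depended on the length used, because Oprm1 has 8037 bases of merged exons over its many transcripts but a longest single transcript of 2420 bases. Per kb of the longest transcript, wild-type naive libraries gave 40.6 ± 1.04 CPM per kb for Oprl1, 4.82 ± 0.398 for Oprm1, 4.26 ± 0.500 for Oprk1 and 1.53 ± 0.369 for Oprd1. Oprm1 was then above Oprd1 in 16 of 16 libraries, with a median ratio of 3.00, and above Oprk1 in 5 of 16. Oprl1 kept 76.5 to 80.4% of the sum. So Oprl1 came first and Oprd1 below Oprk1 by either length, while the place of Oprm1 is not settled by these counts. In bulk tissue, fewer cells of a type and less RNA per cell cannot be told apart, here and in every comparison that follows.

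**Figure D1:**
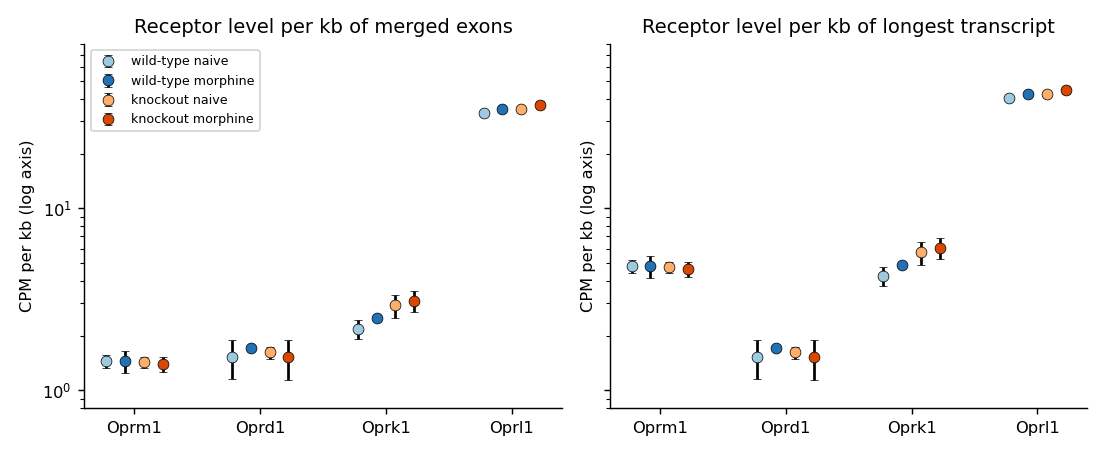
Mean level of each receptor gene in each group, in CPM per kb on a log axis, with SD as bars (n = 4 libraries), by merged exons on the left and by the longest transcript on the right. Oprl1 lies above the other genes in both panels, and Oprm1 moves from beside Oprd1 on the left to beside Oprk1 on the right.

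A question that these genes bear on first is whether morphine tolerance goes with less receptor mRNA. No receptor gene was called between morphine and naive libraries of either genotype. In wild-type mice 0 of 4 were called, where 4.41% of the 18111 tested genes were, and 0 of 4 had an unadjusted p under 0.05, against 20.1% of all tested genes. In knockout-labelled mice 0 of 4 were called where 11.5% of the genes were, and 1 of 4, Oprl1, had an unadjusted p under 0.05, as did 25.5% of all tested genes. DESeq2 and limma-voom also called none of them in these 2 comparisons. A gene was called when edgeR's quasi-likelihood test gave it a Benjamini-Hochberg adjusted p under 0.05 over all tested genes. The wild-type and knockout morphine effects use separate libraries, but each genotype comparison below reuses groups from them.

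Oprm1 encodes the mu receptor, which morphine needs for pain relief. In wild-type naive replicates 1 to 4 it lay at 10.8, 12.7, 12.2 and 10.9 CPM, and in wild-type morphine replicates at 12.2, 10.3, 13.8 and 10.5 CPM. The morphine group held both the lowest and the highest of these 8 libraries, so its range covered that of the naive group. The fitted log2 fold change was 0.00 ± 0.092 (SE), and the 95% interval of the fold ran from 0.876 to 1.15 (edgeR adjusted p = 0.994). These libraries leave folds of Oprm1 within that interval open.

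In knockout naive replicates 1 to 4 Oprm1 lay at 11.7, 11.2, 12.4 and 10.6 CPM, and in knockout morphine replicates at 11.1, 12.5, 9.91 and 11.2 CPM. The groups overlapped nearly throughout. The log2 fold change with morphine was −0.04 ± 0.094, with a fold interval from 0.851 to 1.12 (edgeR adjusted p = 0.866). Averaged over both treatments, Oprm1 differed by −0.05 ± 0.066 on the log2 scale between the knockout and wild-type labels, with a fold interval from 0.878 to 1.06 (edgeR adjusted p = 0.905).

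The Oprm1 locus shares exon bases with a gene that rose with morphine. Ipcef1, on the opposite strand at chr10:6885796-7052478, overlaps Oprm1 and shares 96 exon bases with it, and the library kit does not keep the strand, so reads in those bases cannot be told apart. Ipcef1 lay at 9.40 to 10.9 CPM in wild-type naive and 11.2 to 13.8 CPM in wild-type morphine libraries, a log2 fold change of 0.31 ± 0.078 (edgeR adjusted p = 0.0299). It lay at 9.32 to 9.73 CPM in knockout naive and 11.6 to 14.5 CPM in knockout morphine libraries, a log2 fold change of 0.40 ± 0.079 (edgeR adjusted p = 0.00415). The wild-type call was lost in 9 of 27 alternative analyses, 5 of which left out 1 library (replicate 1 or 3 of the naive group, or replicate 1, 3 or 4 of the morphine group; edgeR adjusted p up to 0.114), and the knockout call was lost with the serotonin marker score as a covariate (0.38 ± 0.13, edgeR adjusted p = 0.124). That score did not overlap between knockout naive and knockout morphine libraries, so the covariate fit can hardly tell it from morphine. The nearest tested gene beyond the Oprm1 end, Cnksr3 at 80.9 kb, rose with morphine by 0.46 ± 0.097 in wild-type libraries (edgeR adjusted p = 0.0106) and gave −0.01 ± 0.098 in knockout-labelled ones (edgeR adjusted p = 0.986). Its interaction was −0.47 ± 0.14 and was not called (edgeR adjusted p = 0.253). Mean levels were 6.94 and 9.57 CPM in wild-type naive and morphine libraries, and 8.29 and 8.34 CPM in the knockout-labelled ones.

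Oprd1 encodes the delta receptor, whose agonists relieve pain in chronic states and which enkephalins bind with high affinity. Its wild-type naive replicates 1 to 4 lay at 7.74, 4.64, 5.13 and 7.03 CPM, and its wild-type morphine replicates at 6.62, 6.90, 7.21 and 6.82 CPM. The morphine libraries were tightly grouped inside the wide range of the naive ones. Knockout naive replicates lay at 5.85, 6.84, 6.92 and 6.40 CPM and knockout morphine replicates at 4.78, 5.29, 8.15 and 6.16 CPM, so here the wide range was on the morphine side. Of the 4 receptor genes Oprd1 had the widest spread, with a tagwise biological coefficient of variation of 0.150, against 0.0416 for Oprl1.

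The log2 fold change of Oprd1 with morphine was 0.18 ± 0.16 in wild-type and −0.10 ± 0.16 in knockout-labelled libraries (edgeR adjusted p = 0.543 and 0.758). The fold intervals ran from 0.903 to 1.43 and from 0.740 to 1.18, so a difference within those bounds was not detectable. The interaction was −0.28 ± 0.22 (edgeR adjusted p = 0.637). Single libraries moved these values: the wild-type one ran from 0.07 without wild-type naive 2 to 0.30 without wild-type naive 1, and the knockout one from −0.26 without knockout morphine 3 to 0.01 without knockout morphine 1. The interaction ran from −0.44 without knockout morphine 3 to −0.17 without wild-type naive 2, and none of these values was called. The libraries lowest in Oprd1 in the wild-type naive group, replicates 2 and 3, were also lowest in the summed GABAergic markers Gad1, Gad2 and Slc32a1, at 774 and 798 CPM against 1001 and 1305 CPM in the other two. In the knockout morphine group the lowest library, replicate 1, had 930 CPM of these markers, but replicate 2, the next lowest in Oprd1, had 1255 CPM, the highest of its group. The GABAergic marker score was chosen as a covariate after these values were seen, so the fit with it is no independent test. With it, the Oprd1 value was 0.01 ± 0.13 in wild-type libraries (edgeR adjusted p = 0.993), −0.05 ± 0.12 in knockout-labelled ones (edgeR adjusted p = 0.863) and −0.05 ± 0.18 for the interaction (edgeR adjusted p = 0.963). Wild-type naive 2 and 3 were also the lowest of their group in serotonin markers, at 252 and 308 CPM against 899 and 624 CPM in replicates 1 and 4. Motor and cholinergic markers were lowest there too (11.9 and 9.42 CPM against 35.2 and 25.1 CPM). Tectum markers were highest there (124 and 121 CPM against 71.1 and 56.1 CPM). These libraries thus differed in several marker lists at once, and the cause of the Oprd1 spread was not tested.

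Oprl1 encodes the receptor of nociceptin, a peptide that can oppose opioid pain relief in the brain. Wild-type naive replicates 1 to 4 lay at 128, 121, 128 and 125 CPM, and wild-type morphine replicates at 127, 131, 130.1 and 137 CPM. In this pair of groups 3 morphine libraries were above all naive ones, and the remaining one lay within their range. Knockout naive replicates lay at 135, 127, 136 and 127 CPM, and knockout morphine replicates at 149, 136, 139 and 134 CPM. Here too 3 morphine libraries lay above all naive ones of the same label.

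The log2 fold change of Oprl1 with morphine was 0.06 ± 0.037 in wild-type and 0.09 ± 0.038 in knockout-labelled libraries (edgeR adjusted p = 0.370 and 0.143). Averaged over the genotypes it was 0.08 ± 0.026, a fold of 1.05 with an interval from 1.01 to 1.09, and it missed the threshold with an edgeR adjusted p of 0.0584. In that averaged comparison 0 of 4 receptor genes were called where 17.1% of all tested genes were, and 1 of 4 had an unadjusted p under 0.05, as did 30.3% of all tested genes. The 8 morphine libraries had a lowest, median and highest Oprl1 level of 127, 135 and 149 CPM and the 8 naive ones 121, 128 and 136 CPM. The groups overlapped, with 4 of 8 morphine libraries above every naive one. An exact two-sided permutation within genotypes gave p = 0.00735 for this gene alone, unadjusted, one of 8 such tests.

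The call on Oprl1 therefore hung on the setting. DESeq2's Wald test called it in the averaged morphine comparison, as did edgeR with DESeq2's size factors, with a stricter filter, without knockout naive 3 and without knockout morphine 4 (adjusted p of 0.0288 to 0.0495), while limma-voom did not. With the serotonin marker score as a covariate the log2 fold change was 0.10 ± 0.040 and the edgeR adjusted p 0.180, in a fit that called 2.67% of all tested genes. Between the genotype labels Oprl1 differed by 0.07 ± 0.026, a fold of 1.05 (edgeR adjusted p = 0.261; exact permutation within treatments, unadjusted, p = 0.0102). Its nearest tested neighbour on the left, Rgs19, 21 kb away, encodes another RGS protein of the same subfamily as RGSz1 and gave 0.04 ± 0.062 with morphine in wild-type and 0.09 ± 0.063 in knockout-labelled libraries (edgeR adjusted p = 0.746 and 0.415).

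**Figure D2:**
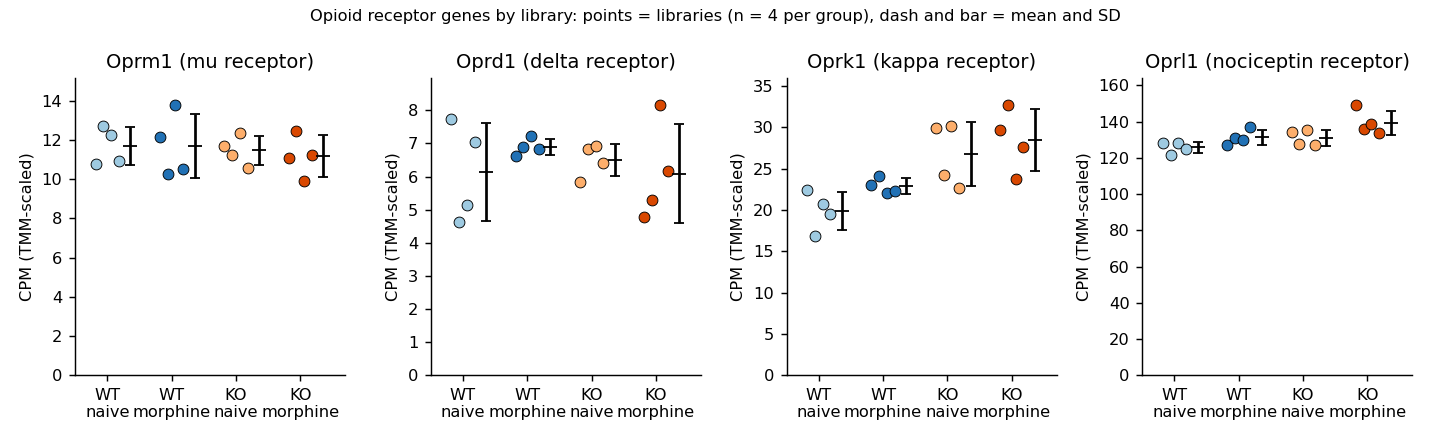
Level of each receptor gene in every library, in TMM-scaled CPM on axes that start at 0. Points are libraries, 4 per group, beside the group mean and SD. Oprk1 is higher in the knockout-labelled groups, the Oprm1 group means lie between 11.2 and 11.7 CPM, and the Oprd1 libraries spread most in the wild-type naive and knockout morphine groups.

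Oprk1 encodes the kappa receptor, the main receptor of dynorphins, and was the only receptor gene called in any of the 7 comparisons. Wild-type naive replicates 1 to 4 lay at 22.5, 16.9, 20.8 and 19.5 CPM. Knockout naive replicates lay at 29.9, 24.3, 30.2 and 22.7 CPM. Every knockout naive library was above every wild-type naive library, by a narrow margin at the closest pair. How many of all tested genes also lacked overlap between these groups is not given here. Wild-type morphine replicates lay at 23.0, 24.2, 22.0 and 22.3 CPM, and knockout morphine replicates at 29.7, 32.7, 23.7 and 27.7 CPM. Here the groups overlapped by 1 library on each side, knockout morphine 3 lying just below wild-type morphine 2.

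Group means of Oprk1 were 19.9 ± 2.34 CPM in wild-type naive, 22.9 ± 0.967 CPM in wild-type morphine, 26.8 ± 3.84 CPM in knockout naive and 28.4 ± 3.75 CPM in knockout morphine libraries (SD, n = 4 each). Both knockout-labelled means lay above both wild-type means. Behind them stood 472 to 1659 Oprk1 reads per library. Averaged over both treatments, Oprk1 was 1.30-fold higher in the knockout-labelled libraries, with a 95% interval from 1.16 to 1.45. The log2 fold change was 0.37 ± 0.076 (edgeR adjusted p = 0.0169). In this comparison 1 of the 4 receptor genes was called, where 1.53% of the 18111 tested genes were (0.685% in the higher direction), and Oprk1 ranked 185 by p.

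Over the 16 libraries, the 8 labelled knockout had a lowest, median and highest Oprk1 level of 22.7, 28.7 and 32.7 CPM, and the 8 labelled wild type 16.9, 22.1 and 24.2 CPM. Of the knockout-labelled libraries 6 of 8 were above every wild-type one, and 8 of 8 were above the wild-type median. An exact two-sided permutation within treatments, over 4900 splits, gave p = 0.00122, unadjusted, for this one gene. The call held in all 26 alternative analyses, with log2 fold changes from 0.34 to 0.41 and adjusted p-values from 0.000146 to 0.0435. Among them, leaving out both libraries with high meningeal markers gave 0.38 ± 0.066 (edgeR adjusted p = 0.00643), the serotonin marker score as a covariate gave 0.39 ± 0.079 (edgeR adjusted p = 0.0196), and the GABAergic marker score gave 0.36 ± 0.082 (edgeR adjusted p = 0.0367).

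Within a single treatment the Oprk1 difference did not pass the threshold over all genes. It was 0.43 ± 0.11 in naive libraries, a fold of 1.35 with an interval from 1.15 to 1.58 (edgeR adjusted p = 0.0755), where 0 of 4 receptor genes and 0.906% of all tested genes were called and 1 of 4 had an unadjusted p under 0.05, as did 12.9% of all tested genes. DESeq2's Wald test called it there (adjusted p = 0.00735), as did edgeR without knockout morphine 3 (adjusted p = 0.0452). The exact permutation gave p = 0.0286, unadjusted, which is the smallest value that 4 against 4 libraries allow. Benjamini-Hochberg adjustment over all receptors and single comparisons so tested took this permutation p to 0.274. In morphine libraries the difference was 0.32 ± 0.11, a fold of 1.25 with an interval from 1.06 to 1.46 (edgeR adjusted p = 0.322). The exact permutation there gave p = 0.0571, unadjusted, and 0.274 after the same adjustment. In that comparison 0 of 4 receptor genes and 0.530% of all tested genes were called. An unadjusted edgeR p under 0.05 was found for 2 of 4, Oprk1 and Oprl1, as for 9.64% of all tested genes. Limma-voom called no receptor gene in either of these comparisons, and DESeq2 none in the morphine one.

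The difference between the naive and the morphine value, the interaction of label and morphine, was −0.12 ± 0.15 with an interval from −0.44 to 0.21 (edgeR adjusted p = 0.804), so an unequal response to morphine was not detectable. In that test 0 of 4 receptor genes were called by edgeR, DESeq2 or limma-voom, and 0 of 4 had an unadjusted edgeR p under 0.05. Of all 18111 tested genes edgeR and limma-voom called 0, while DESeq2's Wald test called 107. In edgeR 2200 genes (12.1%) had an unadjusted p under 0.05. With morphine itself, Oprk1 gave 0.20 ± 0.11 in wild-type libraries (edgeR adjusted p = 0.309) and 0.09 ± 0.11 in knockout-labelled ones (edgeR adjusted p = 0.663). Averaged over the labels this was 0.15 ± 0.076, with a fold interval from 0.990 to 1.24 (edgeR adjusted p = 0.211).

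**Figure D3:**
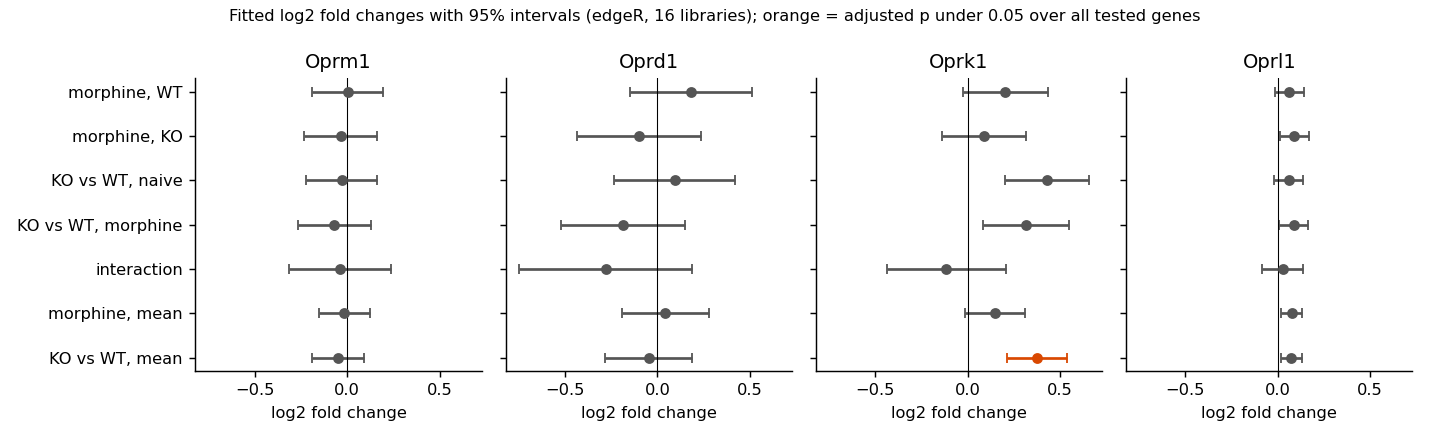
Fitted log2 fold change of each receptor gene in the 7 comparisons, with its 95% interval, from 1 edgeR fit of all 16 libraries. Orange marks an adjusted p under 0.05 over all tested genes, which 1 of the 28 values reached: Oprk1 between the genotype labels, averaged over both treatments.

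Oprk1 and Rgs20 both lie on chromosome 1. The start of Rgs20, which is its edge nearest to Oprk1, lies 518.2 kb before the Oprk1 start. The other genes around Oprk1 were therefore read in the same comparison. The window, gene starts within 4 Mb of the Oprk1 start, was set after values were seen. It held 19 tested genes, of which 3 were called, Oprk1 at its centre being 1 of them. Over all tested genes 1.53% were called, but a window drawn around a called gene cannot test for local enrichment. Besides Oprk1 the called genes were Sntg1, which encodes a syntrophin of the neuronal membrane, and Adhfe1, which encodes a transhydrogenase of mitochondria. Both start near the edge of the window.

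Sntg1, with its start 3711 kb beyond that of Oprk1, was higher in the knockout-labelled libraries by 0.16 ± 0.029 on the log2 scale (edgeR adjusted p = 0.00394). Its levels ran from 30.9 to 33.2 CPM in wild-type naive and from 33.4 to 38.3 CPM in knockout naive libraries, and from 30.4 to 31.5 CPM in wild-type morphine and from 34.4 to 34.9 CPM in knockout morphine libraries. Adhfe1, 3959 kb beyond, was lower by −0.64 ± 0.058 (edgeR adjusted p = 3.70e-06), from 19.3 to 22.1 CPM in wild-type naive against 10.7 to 13.1 CPM in knockout naive libraries, and from 17.3 to 19.9 CPM against 11.7 to 15.4 CPM in the morphine groups. Neither gene overlapped between the labels in either treatment, but both are named because they were called, so this is no separate support. The share of all tested genes without overlap is not given here. The 2 genes thus separated the labels more cleanly than Oprk1 did, while Rgs20 did not.

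The nearest tested neighbours of Oprk1 were not called in this comparison. Atp6v1h, 425.9 kb to the left, differed by −0.07 ± 0.031 (edgeR adjusted p = 0.430), and Npbwr1, 307.6 kb to the right and itself a receptor related to the opioid receptors, by 0.01 ± 0.13 (edgeR adjusted p = 1.00). That of Npbwr1 averages −0.30 ± 0.19 in naive and 0.31 ± 0.19 in morphine libraries (edgeR adjusted p = 0.514 and 0.630), whose difference, the interaction, was 0.61 ± 0.27 (edgeR adjusted p = 0.376). Rgs20 differed by −0.06 ± 0.051 (edgeR adjusted p = 0.772), Rb1cc1 by 0.04 ± 0.024 (edgeR adjusted p = 0.656) and St18 by 0.09 ± 0.071 (edgeR adjusted p = 0.785). Since the labels give no strain, strain background and genotype cannot be told apart for any gene of this window, Oprk1 included.

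**Figure D4:**
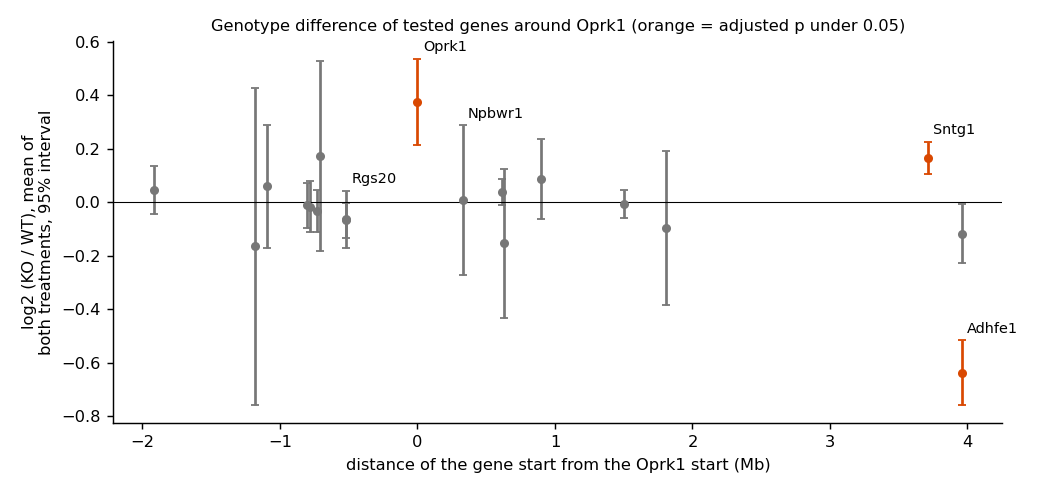
Difference between knockout-labelled and wild-type libraries, averaged over both treatments, on the log2 scale with 95% intervals, for the 19 tested genes whose starts lie within 4 Mb of the Oprk1 start, by distance in Mb. Orange marks the 3 called genes: Oprk1 at 0.37, Sntg1 at 0.16 and Adhfe1 at −0.64.

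The levels of Oprk1 and Oprl1 were related across the 16 libraries by Pearson's r, less firmly by rank. Pearson's r of their log2 CPM was 0.72 (permutation p = 0.00151, Benjamini-Hochberg adjusted 0.0151 over 10 relations) and Spearman's rho 0.62 (permutation p = 0.0118, adjusted 0.118). Without the 2 libraries farthest from the Oprk1 median r was 0.61, and after each group's mean was subtracted it was 0.48. All libraries share depth scaling and tissue makeup, and both genes were higher in the knockout morphine than in the wild-type naive group, so the pooled r holds group differences too. None of the other 5 receptor pairs and none of the 4 relations with the serotonin marker score passed the adjustment. For Oprm1 and Oprd1, r was −0.41 (permutation p = 0.117, adjusted 0.583; rho −0.39, permutation p = 0.135, adjusted 0.673), and r without the 2 farthest libraries was −0.43.

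**Figure D5:**
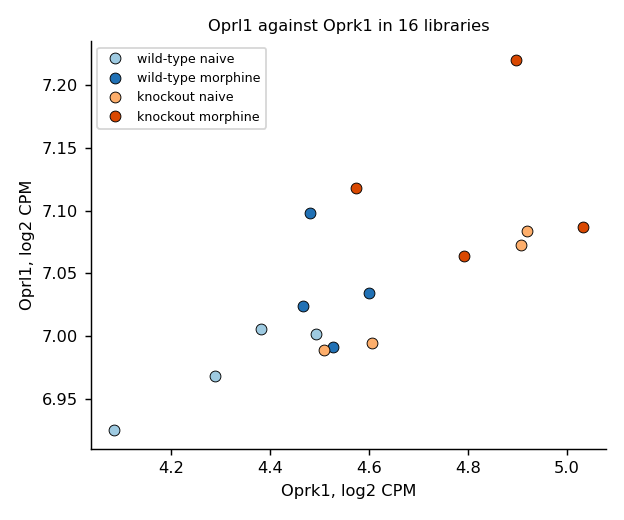
Oprl1 against Oprk1 in the 16 libraries, both in log2 CPM, coloured by group. Wild-type naive libraries lie toward the lower left and knockout morphine libraries toward the upper right, with r = 0.72 over all libraries and 0.48 within groups.

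The genes whose levels followed each receptor most closely were ranked by Pearson's r over the 16 libraries among the 12955 protein-coding genes whose log2 CPM averaged 1 or more. For Oprm1 they were Syne1 (r = 0.89), Prrg3 (0.85), Lrrc7 (0.83), Dtwd1 (0.81) and Anks3 (0.80). For Oprd1 they were Nexn (r = 0.91), Rimkla (0.90), Fgf11 (0.89), Nefh (0.89) and Kctd9 (0.88). Oprk1 was followed by Cep170 (r = 0.90), Epha5 (0.86), Zfp451 (0.85), Cacul1 (0.84) and Ergic2 (0.84). Oprl1 was followed by Dcaf6 (r = 0.89), Pithd1 (0.86), Nipsnap1 (0.86), Gabra2 (0.85) and Apmap (0.81). No gene appeared under more than 1 receptor. For Zfp451 r with Oprk1 fell to 0.50 once group means were subtracted, while for Cep170 it was 0.91. These are descriptions of 16 libraries that share depth and tissue makeup.

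The other genes of opioid signalling were read in the same fit, as 51 genes in 8 lists, all of them tested. Beside the 4 receptors, 1 of 51 was called higher and 0 lower with morphine in wild-type libraries, against 4.41% of all tested genes. In knockout-labelled libraries 6 of 51 were higher and 1 lower, 13.7% against 11.5% of all tested genes. In the average of both, 6 were higher and 2 lower, 15.7% against 17.1%. The median log2 fold change of the 51 was 0.00, 0.06 and 0.03 in these 3 comparisons, beside −0.01, 0.00 and −0.01 over all tested genes. Between the genotype labels, and for the interaction, edgeR called 0 of 51. That is near the share of all tested genes called: 0.906% in naive, 0.53% in morphine, 1.53% in the average and 0% for the interaction. In the averaged genotype comparison the smallest p was that of Adcy3, an adenylyl cyclase, at −0.07 ± 0.023 (edgeR adjusted p = 0.143).

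Among the ligands, 2 of 4 peptide genes rose with morphine in the knockout-labelled libraries and in the average. Penk, the enkephalin precursor, lay at 80.7 to 90.7 CPM in knockout naive and 95.8 to 118 CPM in knockout morphine libraries, a log2 fold change of 0.36 ± 0.065 (edgeR adjusted p = 0.00241). Pdyn, the precursor of the dynorphins that act on the kappa receptor, lay at 3.23 to 6.64 CPM and 8.41 to 14.7 CPM in the same groups, a log2 fold change of 1.24 ± 0.27 (edgeR adjusted p = 0.00949). In wild-type libraries Penk gave 0.13 ± 0.064 and Pdyn 0.60 ± 0.27 (edgeR adjusted p = 0.249 and 0.225), and their interactions did not pass (edgeR adjusted p = 0.338 and 0.518). Pnoc, the nociceptin precursor, gave 0.09 ± 0.19 in wild-type and 0.04 ± 0.19 in knockout-labelled libraries, and Pomc, the endorphin precursor, −0.06 ± 0.16 and −0.09 ± 0.17. Neither was called in any of the 7 comparisons, where their lowest edgeR adjusted p was 0.664.

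Among regulators, Rgs2, which acts mainly on Gq, rose with morphine under both labels. It lay at 47.2 to 54.2 CPM in wild-type naive and 57.4 to 64.6 CPM in wild-type morphine libraries (log2 fold change 0.25 ± 0.051, edgeR adjusted p = 0.00982), and at 47.0 to 50.5 CPM and 57.3 to 66.7 CPM in the knockout-labelled groups (0.34 ± 0.052, edgeR adjusted p = 0.000736). Neither pair of groups overlapped, which is no separate support, as Rgs2 is named because it was called. In the knockout-labelled libraries Rgs9, an RGS protein of striatal and opioid signalling, also rose (0.27 ± 0.065, edgeR adjusted p = 0.0117), as did Gprasp1, which sorts receptors to lysosomes (0.18 ± 0.040, edgeR adjusted p = 0.00898), and the somatostatin receptor gene Sstr5 (0.52 ± 0.13, edgeR adjusted p = 0.0135). Adcy1, a calcium-stimulated adenylyl cyclase, fell by 0.23 on the log2 scale (SE 0.047, edgeR adjusted p = 0.00507). Rgs9, Gprasp1, Sstr5 and Adcy1 were not called in wild-type libraries or for the interaction. Mean CPM without and with morphine was 33.1 and 33.5 for Rgs9 under the wild-type label, and 30.0 and 36.3 under the knockout label. It was 1699 and 1788 against 1664 and 1881 for Gprasp1. For Sstr5, low throughout, it was 1.86 and 1.83 against 1.40 and 2.00. For Adcy1 it was 177 and 177 against 201 and 171. Their naive means differed between the labels too, without a call. In the averaged comparison Gnaz, which encodes the alpha subunit of Gz, gave 0.09 ± 0.030 and Rgs6 −0.15 ± 0.047 (edgeR adjusted p = 0.0418 and 0.0414). None of the 6 receptor kinase and arrestin genes and none of the 4 other opioid-binding or formerly opioid-named receptor genes was called by edgeR in any comparison. Ogfrl1 came nearest, with 0.07 ± 0.027 in the averaged morphine comparison (edgeR adjusted p = 0.0905, unadjusted p = 0.0207). The share of all tested genes called ran from 0% to 17.1% over the comparisons, so lists this short say little.

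Markers of several cell types also differed with morphine. In wild-type libraries 0 of 10 serotonin neuron markers were called, while 3 of 5 endothelial and 1 of 5 microglial markers were lower. In knockout-labelled libraries 10 of 10 serotonin markers were higher (median log2 fold change 1.95), and 6 of 7 oligodendrocyte (median −0.53), 3 of 5 endothelial and 1 of 5 microglial markers were lower. Also higher there were 2 of 5 pan-neuronal, 1 of 3 glutamatergic, 1 of 4 dopamine and 1 of 4 motor and cholinergic markers. In the average, 9 of 10 serotonin and 3 of 4 motor and cholinergic markers were higher, and 4 of 5 endothelial, 3 of 5 microglial and 3 of 7 oligodendrocyte markers were lower. Also higher were 2 of 5 pan-neuronal, 2 of 4 dopamine and 1 of 3 each of the glutamatergic, noradrenaline and forebrain markers. Lower too were 2 of 4 tectum markers. Over the 66 tested markers of all 14 lists, 0 were called higher and 4 lower in wild-type and 15 and 10 in knockout-labelled libraries. In the average these were 19 and 12. Of all tested genes, 4.41%, 11.5% and 17.1% were called in the 3 comparisons. Of the lists named here only the serotonin score was entered as a covariate, and the part of the other lists in the pathway values was not tested.

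The serotonin score, a mean of centred log2 CPM, ran from −1.89 to −0.49 in knockout naive and from 0.05 to 1.48 in knockout morphine libraries. Score and morphine can therefore hardly be told apart there. Wider errors and lost calls do not show whether serotonin neuron content lies behind a value, which was not tested. Once the score entered the fit, the share of all tested genes called went from 11.5% to 1.68% in the knockout-labelled libraries and from 17.1% to 2.67% in the average. All 7 pathway calls in the knockout-labelled libraries and 7 of the 8 averaged ones were among the calls lost, Rgs2 keeping the averaged one (0.16 ± 0.041, edgeR adjusted p = 0.0366). In the knockout-labelled libraries Penk kept its size with a wider error (0.34 ± 0.10, edgeR adjusted p = 0.102), as did Gprasp1 (0.20 ± 0.063, edgeR adjusted p = 0.111). Pdyn became smaller (0.37 ± 0.28, edgeR adjusted p = 0.543), as did Rgs2 (0.15 ± 0.058, edgeR adjusted p = 0.175). In the average Penk gave 0.23 ± 0.073 and Pdyn 0.33 ± 0.20 (edgeR adjusted p = 0.103 and 0.427). The wild-type call of Rgs2 was kept in all 27 alternative analyses. Without knockout morphine 4 the call of Sstr5 was lost (edgeR adjusted p = 0.109), and that of Rgs9 was lost without knockout morphine 4 or knockout naive 2 (edgeR adjusted p up to 0.0509). Of the averaged calls, that of Gnaz was lost in 11 of the 16 fits that left out 1 library, those of Rgs6 and Rgs9 in 9 each, and that of Adcy1 without wild-type morphine 2 (edgeR adjusted p = 0.0521).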

How the data were processed

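Per the labels' protocols, RNA came from a TRIzol extraction and went into TruSeq RNA v2 libraries, a kit that keeps no strand. The authors deposited whole-number read counts per gene, for which the submitters' processing notes name HTSeq, limma and mm10; aligner, annotation and strand setting: not given in the sources used here. The tallies of reads outside genes (38.2 to 40.6% of all) stayed out of library sizes and tests. Symbols, positions and coding sequences came from GENCODE M21 on GRCm38; coding sequences were aligned with MAFFT 7.526.

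After filterByExpr (minimum count 10) and TMM scaling, genes were tested by the robust quasi-likelihood test of edgeR 4.0.16 under R 4.3.3, in 1 fit of 16 libraries with a coefficient per group and 12 residual degrees of freedom. Benjamini-Hochberg adjustment ran over all 18111 tested genes, with a threshold of 0.05. There were 7 comparisons: morphine under each genotype label, genotype under naive and under morphine, the interaction, and an average of each pair. Single genes were also compared by exact permutation of log2 CPM, and correlations used 100000 permutations. No 2 libraries of one group agreed within sampling noise (the lowest chi-square per gene was 3.72), and none was counted as a duplicate. The labels call the libraries biological replicates. The fit was tested on simulated counts.

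The receptors and gene lists were chosen with earlier results of these data known. The genes named are the receptors, Rgs20, list members past the threshold or with the smallest p, overlapping or neighbouring genes, and the 5 genes most correlated with each receptor. Sntg1 and Adhfe1 and the window around Oprk1, Rb1cc1 and St18 in it, the permutation within strata, the sequence stretch, the following of Ipcef1 and Cnksr3 through the alternatives, the GABAergic covariate and the joint removal of wild-type naive 2 and knockout morphine 3 were chosen after values were seen. Other alternatives were DESeq2's size factors and Wald test (1.42.0), upper quartile scaling, limma-voom (3.58.1), no filter, at least 1 CPM in 8 libraries, only the groups compared, a replicate block, the serotonin marker score as a covariate, and leaving out each library.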

Additional observations from a re-analysis of the deposited data

Results flagged for a closer look

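None of the 16 receptor-by-group sets of 4 libraries held a library far from the others by Dixon's criterion. Of 36 sets checked, receptors and marker lists together, 1 did: the meningeal fibroblast markers summed to 158 CPM in wild-type naive 2, against 28.7 to 31.1 CPM in the other 3 libraries of its group. Chance would mark about 1 set in 20. That library was the lowest of its group in Oprk1 (16.9 CPM), Oprd1 (4.64 CPM) and Oprl1 (121 CPM) and the highest in Oprm1 (12.7 CPM). Without it, the averaged genotype difference of Oprk1 was 0.34 ± 0.073 on the log2 scale (edgeR adjusted p = 0.0258).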

How the results depend on the processing

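The 7 counts of called receptor genes were recomputed 186 times and kept their value in 179. The exceptions were counts of 1 in place of 0. For knockout against wild type in naive libraries the count was 1 (Oprk1) with DESeq2's Wald test, and it ran from 0 to 1 over the fits that left out 1 library, reaching 1 without knockout morphine 3. For morphine against naive averaged over both labels it was 1 (Oprl1) with DESeq2's size factors, with at least 1 CPM in 8 libraries and with DESeq2's Wald test, and it ran from 0 to 1 over the fits that left out 1 library, reaching 1 without knockout naive 3 or knockout morphine 4. Oprk1 between the labels, averaged, stayed called in 26 of 26, from 0.34 to 0.41. No called value changed sign; among 744 recomputed receptor fold changes, called or not, 38 had the opposite sign of a value that was not called, such as Oprm1 with morphine averaged over both labels (7 of 26, from −0.06 to 0.07). The cause was not tested.

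Replicate numbers did not pair the libraries: deviations of same-numbered libraries had a median correlation of 0.02 (−0.41 to 0.30), and 4 of 16 libraries correlated best with their own number. With the replicate block, Oprk1 between the labels gave 0.37 ± 0.075 (edgeR adjusted p = 0.0301), and the block changed no receptor call.

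With 4 libraries a group and 2 animals in each, fold changes of Oprd1 within its wide intervals were not detectable. Exon use and protein were not measured by these counts, and the order of Oprm1 among the receptors depends on the transcript length assumed.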
